A study of Mus musculus with 4 samples.

Results

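The interferon-inducible GTPases examined were 9 mouse genes of 2 classes. Irgm1, Irgm2, Igtp, Ifi47 and Iigp1 are immunity-related GTPases (IRGs), and Gbp2, Gbp3, Gbp7 and Gbp9 are guanylate-binding proteins (GBPs). The genes were chosen by name, with earlier results of these data known. They are 9 of the 21951 protein-coding genes of the annotation (GENCODE M21, basic transcripts). An m6A peak was given to a gene when its summit, the position of the peak's highest enrichment, lay in an exon of that gene. By this rule 5 of the 9 genes carried m6A peaks in c-Kit+ cells, with 9 peaks in the first immunoprecipitation (IP) replicate and 8 in the second. The same 5 genes carried peaks in both replicates, as did 30.9% of all protein-coding genes.

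Many IRGs and GBPs are induced by interferons, most strongly by interferon-γ. They protect cells against intracellular pathogens by binding to and disrupting the vacuoles in which these live. The IRGM proteins (Irgm1, Irgm2 and Igtp) sit on the membranes of the cell itself and hold the effector IRGs, such as Ifi47 and Iigp1, in their inactive form until they are needed. N6-methyladenosine (m6A) is placed on mRNA by the METTL3-METTL14 complex at the A of the motif DRACH, often in the form GGAC, and is densest around stop codons and in long exons. YTHDF2 binds m6A in the cytoplasm and promotes the decay of the transcripts that carry it.

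The m6A-seq data came from one kind of cell, foetal liver cells of the C57BL/6 background that had been enriched for the stem and progenitor marker Kit with magnetic beads. Per the study's methods these were Ythdf2CTL cells, which carry the floxed Ythdf2 allele on both chromosomes (Ythdf2 fl/fl) without Cre. In that allele GFP is fused to the start of YTHDF2, so that the cells make a GFP-YTHDF2 fusion protein. No treatment is given, the age is not given beyond foetal, and no cells without Ythdf2 were among the samples. The IP samples are labelled as total RNA and the 2 input samples as polyA RNA, and there are 2 biological replicates of each. Peaks were called by the authors in each IP replicate separately, and the input samples were not analysed here. With 1 group of 2 IP replicates there is no test between conditions, so that all values below are descriptions with their spread over the replicates.

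Across all genes, 15635 peaks were present in replicate 1 and 14872 in replicate 2. The median peak with its summit in an exon rested on 68 IP reads at the summit in replicate 1 and 66 in replicate 2. Of 8 genes that mark hematopoietic progenitors, 5 carried a summit in both replicates, and Kit itself carried none in either. The counts were 2 of 4 for erythroid genes, 2 of 5 for macrophage genes, 1 of 5 for hepatocyte genes, 1 of 4 for endothelial genes and 1 of 4 for lymphocyte genes. A peak needs both the modification and the RNA, so these counts do not measure how much of each cell type was present. For the same reason a GTPase gene without a peak may have lacked m6A or the reads to show it.

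Irgm1, Irgm2, Igtp, Ifi47 and Gbp7 carried a summit in both replicates, and Iigp1, Gbp2, Gbp3 and Gbp9 carried none in either. The 5 genes were the same in each replicate, and 4 were left when summits that also lie in an exon of another gene were taken out, which removed Gbp7. For comparison, 34.4% of all protein-coding genes carried an exonic summit in replicate 1, 33.5% in replicate 2 and 30.9% in both. By class, 4 of 5 IRGs and 1 of 4 GBPs carried peaks in both replicates, and 14 of the 17 peaks lay in IRGs. With 9 genes these counts only describe which members were marked.

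**Figure D1:**
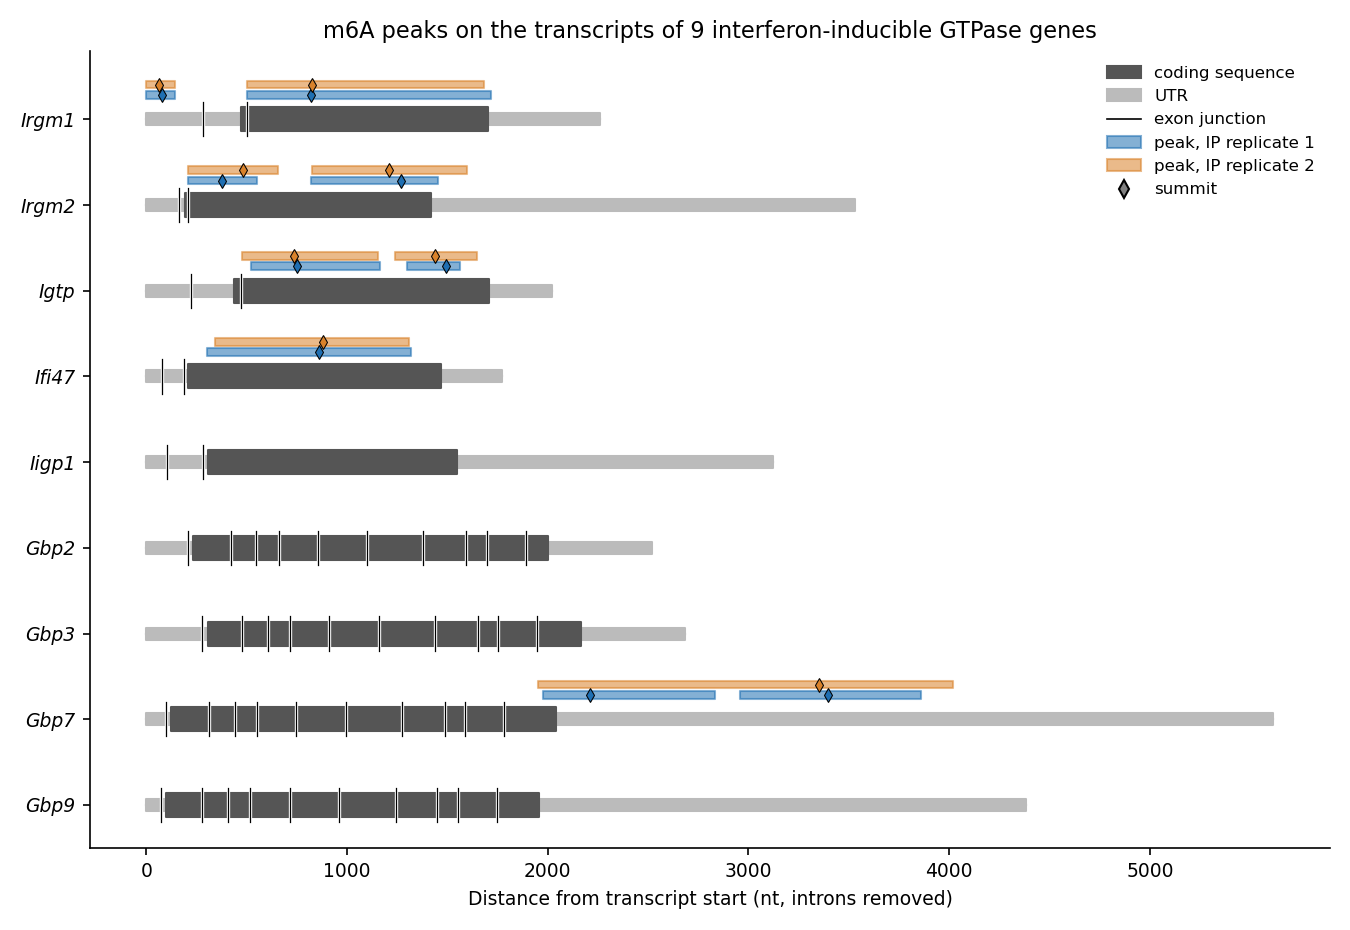
Transcripts of the 9 genes drawn to scale from the transcript start, with introns removed (x axis in nt), coding sequence in dark grey, UTRs in light grey and exon junctions as vertical lines. Bars above each transcript span the peaks of IP replicate 1 (blue) and 2 (orange), and diamonds mark the summits, which lie in the long last exon of Irgm2, Igtp, Ifi47 and Gbp7, and in the first and the last exon of Irgm1.

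Irgm1, a regulator of the IRG system that is also needed for autophagy and for the survival of hematopoietic stem cells under interferon, had the strongest peak of the group. The gene lies on the − strand at chr11:48861968-48871683 of GRCm38. The peak lay at chr11:48865788-48867134 in replicate 1 and chr11:48865823-48867136 in replicate 2. Its fold enrichment was 5.51 and 5.97, which gives 5.74 ± 0.324 (SD, n = 2). Fold enrichment is scaled IP over scaled local background at the summit, with 1 added to each. The added 1 lowers the ratio most where the background is low. The −log10 q of the peak, the strength of the call after correction over the genome, was 56.1 and 52.7. These values placed it at the 98.4 and 98.1 percentile of −log10 q over all exonic peaks, but at the 69.8 and 70.5 percentile of fold enrichment. The summit was deeply covered, by 149 IP reads in replicate 1 (95% Poisson interval of 126 to 175) and 137 in replicate 2 (115 to 162). The background was 30 and 21 control reads. The peak was 1347 and 1314 bp wide, and covered 97.8% and 96.0% of the coding sequence.

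Both summits of this Irgm1 peak fell in codon 117 of 410, in the third and last exon, and were 1 nt apart. The A of the nearest GGAC lay 5 nt from the summit in replicate 1 and 4 nt in replicate 2, at position 48866676 of chromosome 11. The window of 41 nt around it, chr11:48866656-48866696 read on the − strand, is shown with the GGAC in capitals because it is the GGAC closest to any summit in the 9 genes.

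Irgm1, coding peak: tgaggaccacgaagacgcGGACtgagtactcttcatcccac

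A weaker peak of Irgm1 lay in the 5′ UTR, in exon 1 of 3, and was the only member peak outside a last exon. It spanned chr11:48871233-48871457 in replicate 1 and chr11:48871231-48871467 in replicate 2, with a fold enrichment of 4.08 and 3.66 and a −log10 q of 14.7 and 10.8. The summits, 15 nt apart, were covered by 53 and 49 IP reads, and the background was 14 and 12 control reads. A DRACH motif lay 1 nt from the summit of replicate 1. The summit of replicate 2 lay between this motif and another one upstream, at 16 nt from each. The 29-nt windows around the 2 motifs, at chr11:48871283-48871311 and chr11:48871315-48871343, are shown with the motif in capitals.

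Irgm1, 5′ UTR peak, motif near both summits: atccacgcgatcAGACCtcctcttggttc

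Irgm1, 5′ UTR peak, upstream motif: aggtctgctcgaAGACCagaagctgaaag

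Irgm2 (chr11:58199618-58222782) and Igtp (chr11:58199556-58207591), the other IRGM genes, overlap on the + strand, and in the annotation an Irgm2 transcript starts at the promoter of Igtp. Each had 2 peaks in each replicate, one early and one late in the coding part of exon 3 of 3. No summit lay in the first exon that the 2 genes share. The early Irgm2 peak (chr11:58219313-58219807 in replicate 1 and chr11:58219416-58219912 in replicate 2) had a fold enrichment of 6.92 and 5.72, a −log10 q of 10.3 and 8.92, and 18 and 23 IP reads over 2 and 3 control reads. The late Irgm2 peak (chr11:58220074-58220709 and chr11:58220079-58220851) had a fold enrichment of 9.59 and 7.45, a −log10 q of 16.5 and 12.4, and 22 and 24 IP reads over 1.6 and 2.2 control reads. The late peak was the highest of the group in fold enrichment in replicate 1. Irgm2 was also the gene with the fewest reads, and the 95% interval of its 18 reads ran from 10.7 to 28.4.

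The early Igtp peak (chr11:58206093-58206735 in replicate 1 and chr11:58205996-58206723 in replicate 2) had a fold enrichment of 4.64 and 5.72 and a −log10 q of 10.6 and 13.7, with 32 and 35 IP reads over 7 and 5 control reads. The late Igtp peak (chr11:58206870-58207134 and chr11:58206806-58207218) had a fold enrichment of 5.01 and 6.13 and a −log10 q of 14.02 and 14.7, with 39 and 35 IP reads over 8 and 4.6 control reads. Both Igtp peaks were thus higher in replicate 2 and both Irgm2 peaks higher in replicate 1. These differences were inside the spread of the replicates over all genes, which is given below.

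The early summits of Igtp and that of Irgm2 in replicate 2 lay close to the same GGAC when the genes were aligned. In Igtp its A was 8 and 24 nt from the summits, and in Irgm2 it was 13 nt from the summit of replicate 2 and 118 nt from that of replicate 1. The aligned letters were GGCC in Irgm1 and in Ifi47. The 41-nt windows below show these aligned letters in capitals. They lie at chr11:58206308-58206348 (Igtp, + strand), chr11:58219728-58219768 (Irgm2, + strand), chr11:48866711-48866751 (Irgm1, − strand) and chr11:49095681-49095721 (Ifi47, + strand).

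Igtp: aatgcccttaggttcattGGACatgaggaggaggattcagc

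Irgm2: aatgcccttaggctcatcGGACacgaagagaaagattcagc

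Irgm1: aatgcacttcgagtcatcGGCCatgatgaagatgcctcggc

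Ifi47: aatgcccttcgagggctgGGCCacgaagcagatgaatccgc

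Of these 41 letters Irgm2 shared 35 with Igtp, Irgm1 shared 29 and Ifi47 shared 26. Irgm1 nevertheless had its own summits 50 and 51 nt from this position, at the other GGAC shown above. The 3 IRGM genes also shared a GGAC at column 98 of the alignment. In Irgm2 it was 69 and 36 nt from the early summits, in Igtp 41 and 25 nt, and in Irgm1 99 and 100 nt. A GGAC at column 128 was held by Irgm1 and Igtp only, 10 and 11 nt from the Irgm1 summits. In Igtp it was 48 and 64 nt from the early summits. The early summits of the 3 IRGM genes therefore fell in one stretch of the alignment, from column 75 to column 131 of 454, around the P-loop, the phosphate-binding stretch of the GTPase domain, which starts at column 97. All summits but that of Irgm2 in replicate 1 lay after the start of the P-loop, by 29 to 104 nt, whereas that one lay 65 nt before it.

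The late summits lay at columns 378 and 356 of the alignment in Igtp and at columns 393 and 372 in Irgm2, but differed in their distance to GGAC. In Igtp the summits were in codons 353 and 335 of 424, with GGAC 6 and 45 nt away. In Irgm2 they were in codons 358 and 338 of 408, and the nearest GGAC was 489 and 429 nt upstream, so that neither had one within 50 nt. Other DRACH motifs lay 4 nt upstream and 2 nt downstream of those Irgm2 summits. The window of Igtp (chr11:58207048-58207088) and the 2 windows of Irgm2 (chr11:58220497-58220537 for replicate 1 and chr11:58220443-58220483 for replicate 2), all on the + strand, show the nearest DRACH motif in capitals.

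Igtp, late peak, replicate 1: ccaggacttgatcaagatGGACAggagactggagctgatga

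Irgm2, late peak, replicate 1: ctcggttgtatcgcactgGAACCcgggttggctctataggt

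Irgm2, late peak, replicate 2: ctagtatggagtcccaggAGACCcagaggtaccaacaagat

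**Figure D2:**
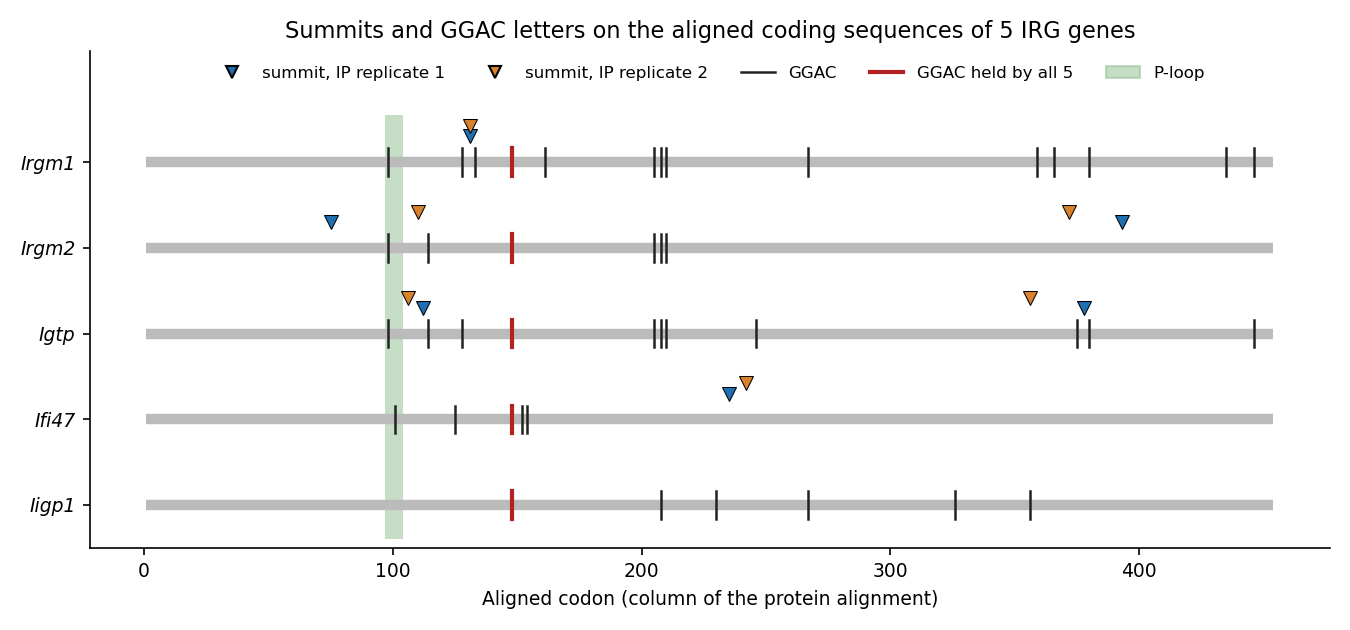
Aligned coding sequences of the 5 IRG genes, with the column of the protein alignment on the x axis (454 columns, gaps not drawn). Triangles are summits of IP replicate 1 (blue) and 2 (orange), vertical ticks are GGAC letters, the red tick is the GGAC that all 5 genes hold at column 148, and the green band is the P-loop. The early summits of Irgm1, Irgm2 and Igtp lie between columns 75 and 131, the Ifi47 summits at columns 235 and 242, and Iigp1 has no summit.

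Ifi47 (chr11:49076587-49096974, + strand), an effector-type IRG, had a single broad peak in the middle of its coding sequence. It spanned chr11:49095502-49096519 in replicate 1 and chr11:49095544-49096511 in replicate 2, with a fold enrichment of 8.64 and 6.31 (7.48 ± 1.64, SD, n = 2) and a −log10 q of 37.2 and 25.2. At the summits there were 65 and 60 IP reads, over a background of 7.60 and 8.2 control reads. They fell in codons 218 and 225 of 421, in the last of 3 exons, 609 and 588 nt before the stop codon. No GGAC lay within 50 nt, and the nearest was 244 and 265 nt upstream. All 5 GGAC of the transcript were under the peak in both replicates but in its upstream part, between codons 85 and 137. The nearest DRACH motifs were 5 nt downstream of the summit in replicate 1 and 1 nt upstream in replicate 2, and the 2 windows (chr11:49096045-49096085 and chr11:49096060-49096100, + strand) overlap.

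Ifi47, replicate 1: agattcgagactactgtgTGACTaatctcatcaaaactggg

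Ifi47, replicate 2: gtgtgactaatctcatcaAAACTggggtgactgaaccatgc

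A second peak lay upstream, within the Ifi47 gene, at chr11:49086531-49086992 in replicate 1 and chr11:49086607-49087052 in replicate 2. Its fold enrichment was 6.55 and 5.53, its −log10 q 12.5 and 10.5, and 25 and 28 IP reads stood over 3.40 and 4 control reads. Its summit lay in an exon of Ifi47 only when all annotated transcripts were used and not in the basic set, so it is not among the 17 peaks. In replicate 2 the peak also overlapped exons of both Ifi47 and Olfr56 in the basic set, so the overlap cannot be given to one of them.

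Gbp7, linked to oxidative killing of bacteria in macrophages, was the GBP with peaks, and they lay in the 3′ UTR part of its last exon, exon 11 of 11. The gene is at chr3:142530342-142550149 on the + strand. In replicate 1 there were 2 peaks. The first (chr3:142546511-142547368) had a fold enrichment of 4.51 and a −log10 q of 11.2 with 35 IP reads over 8 control reads, and its summit was 174 nt after the stop codon. The second (chr3:142547492-142548392) had a fold enrichment of 5.56 and a −log10 q of 22.8 with 58 IP reads over 11 control reads. In replicate 2 a single peak of 2071 bp (chr3:142546485-142548555) spanned both, with a fold enrichment of 7.68, a −log10 q of 24.4 and 49 IP reads over 5.2 control reads, and was at the 99.4 percentile of width over the exonic peaks of that replicate. Its summit was 49 nt from that of the second peak of replicate 1, and the same GGAC lay 23 nt upstream of one and 26 nt downstream of the other. Both of these summits also lay in an exon of Gm43802, a processed pseudogene, and the peak lists carry no strand, so only the first peak of replicate 1 can be given to Gbp7 alone. The 29-nt windows around the GGAC of the first peak (chr3:142546764-142546792) and of the second (chr3:142547896-142547924) are shown with the GGAC in capitals.

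Gbp7, first peak: ctccttatatgcGGACatctttggcacag

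Gbp7, second and joined peak: attttccttcatGGACtgggagacactgg

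Replicates gave the same set of regions. Each of the 17 member peaks shared at least 1 bp with a peak in the other list, where 84.2% of all exonic peaks of replicate 1 and 86.8% of replicate 2 did. For the 7 regions with 1 peak in each replicate (Gbp7 was left out because its peaks were joined), the log2 ratio of fold enrichment in replicate 2 over replicate 1 ran from −0.45 in Ifi47 to 0.30 in the early Igtp peak. Over 9676 exonic pairs of all genes the SD of this ratio was 0.45, and all 7 member pairs were within 1 SD of 0. It was below 0 in 4 pairs and above 0 in 3. Summits of a pair were 1 to 105 nt apart, closest in the coding peak of Irgm1 and farthest in the early peak of Irgm2. With 2 replicates, the order of the genes by fold enrichment was not settled beyond this spread. The 5′ UTR peak of Irgm1 had the lowest value in each replicate, but in replicate 1 it was close to the first Gbp7 peak (4.08 and 4.51).

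**Figure D3:**
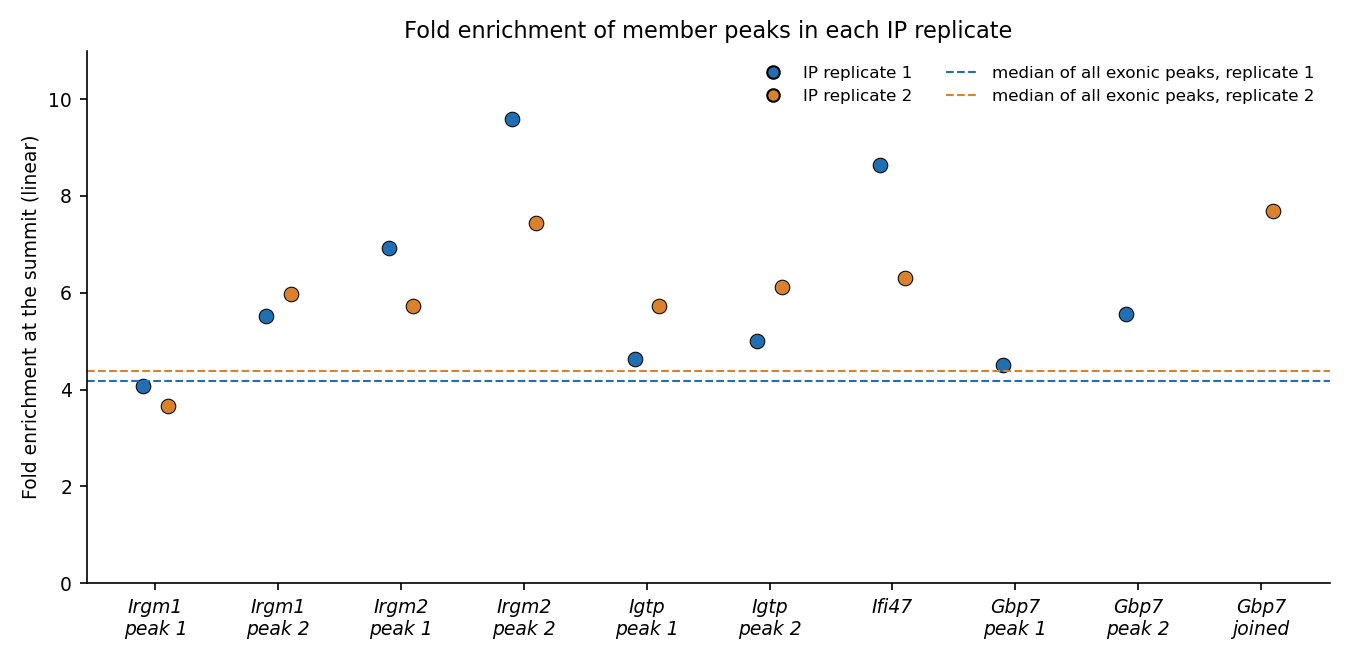
Fold enrichment at the summit (y axis, linear, from 0) of each member peak in IP replicate 1 (blue) and 2 (orange), with dashed lines at the median of all exonic peaks (4.18 and 4.39). The 5′ UTR peak of Irgm1 lies below both lines, and the other member peaks lie above the line of their replicate.

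Member peaks were higher in fold enrichment than exonic peaks in general, but thinner in reads and lower in median −log10 q. Their median fold enrichment was 5.51 in replicate 1 (n = 9 peaks) and 6.05 in replicate 2 (n = 8 peaks), against 4.18 and 4.39 over all exonic peaks, and 8 of 9 and 7 of 8 lay above that median. Their median −log10 q was 14.7 and 14.2 against 16.1 and 15.8. Their median depth was 39 and 42 IP reads against 68 and 66, and the median background was 8 and 5.1 control reads against 17.0 and 13. The background was below the overall median for 8 of 9 and 7 of 8 member peaks, the exception in each replicate being the coding peak of Irgm1. The fold enrichment is a ratio to this background, and member peaks were not compared with peaks of similar background. The higher fold is therefore not shown to be a trait of these genes. The Irgm2 folds, over 1.6 to 3 control reads, were the least precise of the group. Member peaks were also broad, with a median width of 643 and 750.5 bp against 397 and 413.5 bp.

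**Figure D4:**
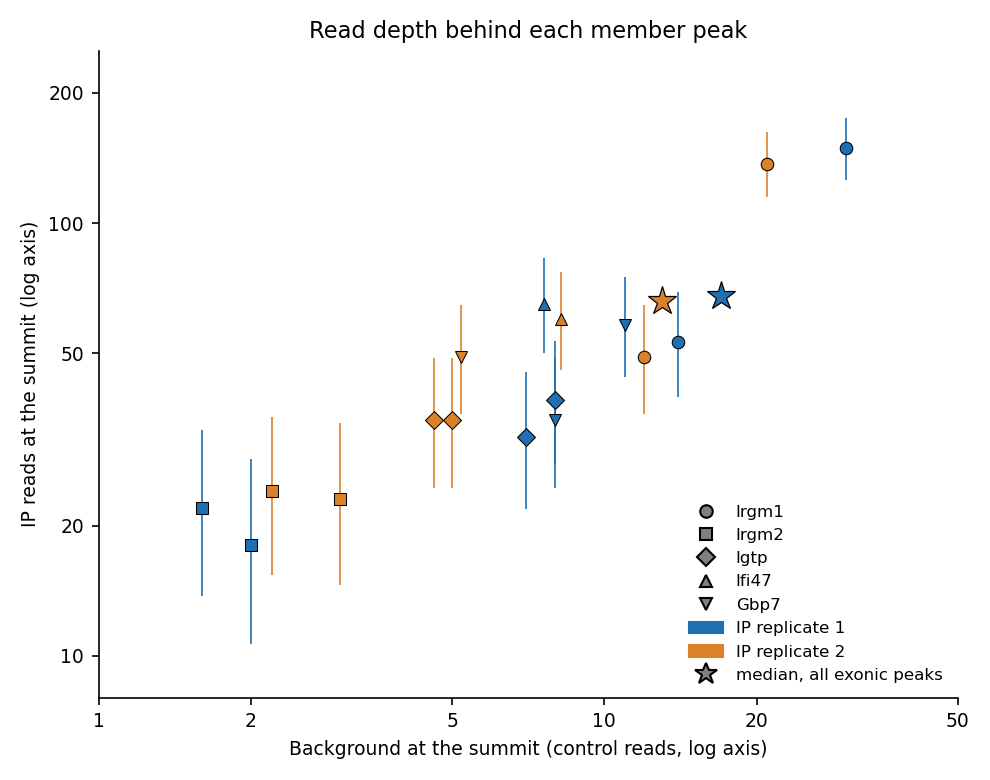
IP reads at the summit (y axis, log) against the background in reads of the control library (x axis, log) for each member peak, with 95% Poisson intervals of the IP reads that cover counting error only. Symbols mark the gene and colours the IP replicate, and stars are the medians over all exonic peaks (68 over 17.0 reads and 66 over 13 reads). Only the coding peak of Irgm1 lies above the stars, and the Irgm2 peaks lie lowest, at 18 to 24 IP reads.

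The IRGs share an exon structure, and most of their summits lay in its long last exon. Each of the 5 IRG transcripts has 3 exons, and the last, of 1548 to 3319 nt, holds 96.9 to 100% of the coding sequence. Of the 14 IRG summits, 12 lay in the coding part of this exon, as 6 of 9 member summits in replicate 1 and 6 of 8 in replicate 2. Over all genes 28.4% of 10830 placed summits in replicate 1 and 27.7% of 10465 in replicate 2 lay in the coding part of a last exon. Nearly all IRG coding sequence is in the last exon, so the share in any coding sequence is the closer comparison. It was 56.4% and 55.9% over all genes, beside the same 6 of 9 and 6 of 8 member summits. The shares over all genes in this paragraph leave out summits that also lie in an exon of another gene. The member counts keep such summits of Gbp7, 1 in each replicate. Only 2 member summits of replicate 1, in the late peak of Irgm2 and the first peak of Gbp7, and none of replicate 2 were within 200 nt of a stop codon. Of all placed summits 30.7% and 29.7% lay there. The late Irgm2 summit of replicate 2 lay 210 nt before the stop codon and the late Igtp summits 213 and 267 nt. The count of the members thus depends on this limit. The 4 GBP transcripts have 11 exons each, no coding stretch of an exon is longer than 281 nt, and the last exon holds 6.27 to 13.3% of the coding sequence.

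GGAC was present within 50 nt of 12 of the 17 member summits, 6 in each replicate. The share was 57.0% and 56.7% over all placed summits, so the count of the members was not far from that of all genes. These shares leave out summits that lie in exons of 2 genes, as 2 of the Gbp7 summits do. A DRACH motif was within 50 nt of all 17 summits, beside 93.9% over all genes in each replicate. Reading the mature transcript in sense there were 20 GGAC in Irgm1, 11 in Irgm2, 14 in Igtp and 5 in Ifi47, of which 16, 2, 10 and 5 were under a peak in both replicates. In Gbp7 7 of 16 were under a peak in both. The remaining 9 GGAC of Irgm2 were not under a peak in both replicates.

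One GGAC was held by all 5 IRGs at the same aligned place, column 148. Its A is the middle base of an aspartate codon that is followed by a glycine 3 codons on, the G3 motif of the GTPase fold. It lay 48 and 47 nt from the coding summits of Irgm1, 109 and 125 nt from the early summits of Igtp, 216 and 111 nt from those of Irgm2, and 261 and 282 nt from those of Ifi47. The windows of the 4 genes with peaks show this GGAC in capitals, at chr11:48866613-48866653 (− strand), chr11:58219826-58219866, chr11:58206409-58206449 and chr11:49095779-49095819 (+ strand) in the order below. The windows of Irgm2 and Igtp were the same in all 41 letters, Irgm1 shared 35 letters with them and Ifi47 shared 27.

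Irgm1, G3 motif: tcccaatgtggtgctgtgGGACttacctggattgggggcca

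Irgm2, G3 motif: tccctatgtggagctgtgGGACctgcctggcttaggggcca

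Igtp, G3 motif: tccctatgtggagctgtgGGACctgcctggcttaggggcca

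Ifi47, G3 motif: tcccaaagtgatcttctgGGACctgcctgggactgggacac

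Because the IRGs are related, reads of one gene could be placed on another. Over whole coding sequences the identity was 64.0% between Irgm2 and Igtp, 62.6% between Irgm1 and Igtp, 61.8% between Irgm1 and Irgm2, and 45.9 to 46.3% between these and Ifi47. When the 201 nt around each summit were searched against the genome, each window matched its own place at 100%. The next best match of the Igtp early window of replicate 1 was in Irgm2, with 88.1% identity over 176 nt, and that of the Irgm2 early window of replicate 2 was in Igtp, with 84.2% over 202 aligned columns. The coding window of Irgm1 matched Irgm2 best, at 80.1% over 201 nt. The Irgm2 early window of replicate 1 matched Igtp at 76.2% over 151 nt, and the Ifi47 window of replicate 1 matched Tgtp2 at 74.3% over 101 nt. The late windows of Irgm2 and Igtp, the 5′ UTR windows of Irgm1, the Ifi47 window of replicate 2 and the window of the second Gbp7 peak in replicate 1 had no other match. The window of the first Gbp7 peak had 454 weaker matches over the genome, the best at 75.0% over 196 nt, and that of the joined peak had 54, the best at 83.6% over 67 nt. How reads with several placements were treated is not given in the sources used here, and its part in the IRG peaks was not tested.

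Iigp1, Gbp2, Gbp3 and Gbp9 had no peak in either replicate by any rule used. No summit lay in an exon or elsewhere in these genes, and no peak overlapped one of their exons. They lie at chr18:60376027-60392634, chr3:142620602-142638008, chr3:142560026-142573209 and chr5:105077630-105139539. Iigp1, an effector IRG that loads onto pathogen vacuoles, has the IRG structure, with a last exon of 2836 nt that holds all of the coding sequence. Its transcript has 14 GGAC, 6 of them coding and 12 more than 100 nt from an exon junction, and it holds the GGAC of the G3 motif that the 4 IRGs with peaks hold. Its coding sequence was closest to that of Ifi47, at 55.2% identity, and 45.03 to 46.9% identical to those of the IRGM genes. Gbp2 and Gbp3, which act on bacterial and parasite vacuoles, have short last exons (626 and 734 nt), and 1 of 8 and 0 of 10 of their GGAC were more than 100 nt from a junction. Gbp9 has a last exon of 2635 nt with 9 of 17 GGAC more than 100 nt from a junction, similar to Gbp7 with 8 of 16 and a last exon of 3830 nt. Gbp3 and Gbp7 were the closest pair of GBPs, at 77.9% identity of the coding sequence, and Gbp7 and Gbp9 were 71.7% identical, but the peaks of Gbp7 were in its 3′ UTR.

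The length of the longest exon did not separate the genes with peaks from those without. It was 1548 to 3830 nt in the 5 genes with peaks and 626, 734, 2635 and 2836 nt in the 4 without. Over all genes its median was 1704 nt for the 6780 genes with a summit in both replicates and 981 nt for the 13813 genes with none. The median number of GGAC was 14 and 8 in the same groups, and 5 to 20 and 8 to 17 in the members with and without peaks. Expression of the members was not measured in the peak lists, so a missing peak and a silent gene cannot be told apart.

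Among 22 other genes of these families, 6 carried a summit in both replicates, 3 in one replicate and 13 in neither. Response to interferon was not measured here for any of them, and not each gene of a family need be inducible. The IRG genes with a summit in both were Irgq (3 and 3 peaks), Gm5431 (2 and 1), 9930111J21Rik1 (2 and 2) and 9930111J21Rik2 (3 and 4). Tgtp1, Tgtp2 and Gm12250 had 1 peak in replicate 1 only, and Irgc1, Gm4841, Gm4951, Gm12185 and F830016B08Rik had none. Of the GBPs, Gbp5 had 1 peak in each replicate with 8 IP reads at the summit in both, and Gbp2b, Gbp4, Gbp6, Gbp8, Gbp10 and Gbp11 had none. The giant GTPase gene Gvin1 had 3 peaks in each replicate, and the antiviral genes Mx1 and Mx2 had none. Gm12250, Gbp11 and Mx2 are annotated as pseudogenes. Together with the members, 8 of 17 IRG genes and 2 of 11 GBP genes carried a summit in both replicates, beside 30.9% of all protein-coding genes, and genes of a class are related and are not independent of each other.

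Of 14 genes of the interferon signalling pathway that switches on the GTPases, 11 carried a summit in both replicates, beside the same 30.9%. The 4 with the highest −log10 q were Ifnar2 and Ifnar1, which encode the chains of the type I interferon receptor, and Jak1 and Jak2, the kinases that act at the interferon receptors. The strongest peak of Ifnar2 had a fold enrichment of 6.56 and 4.55 and that of Ifnar1 of 5.58 and 5.76. It was 5.13 and 4.79 in Jak1 and 6.02 and 3.94 in Jak2. Their summits rested on 103 to 143 IP reads, and of the member peaks only the coding peak of Irgm1 had as many. Tyk2, a further receptor kinase, Nlrc5, an activator of MHC class I genes, and Socs1, an inhibitor of the pathway, carried no summit in either replicate.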

How the data were processed

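m6A-seq libraries of 2 IP replicates were represented by 1 peak list each. Per the study's methods and the submitters' processing notes, the authors placed reads on GRCm38 (mm10) with HISAT2 and called peaks per replicate with MACS2 (version 2.1.1.20160309, nomodel). The calling threshold and the control library are not given in the sources used here. The deposited fold enrichment is a linear ratio, the deposited −log10 p-value and −log10 q-value describe the same summit, and the deposited score is a multiple of −log10 q. Members and lists were chosen with earlier results of these data known, and all 9 members are named. Other genes of the families are named with their peak counts, and of the signalling genes the 4 with the highest mean of the strongest −log10 q are given with values.

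IP and control reads at summits were computed from the deposited fold and p-value with the formulas of MACS2, and 100% of peaks matched a whole number of IP reads. The control reads are the local background behind the fold, scaled to reads of the control library. They are not a count of reads at the summit, so they need not be whole. This step was tested on data simulated with the same formulas, which tests the computation and not whether the deposited values follow them. Library totals are unknown. Poisson intervals (95%) cover counting error only, since reads without molecular identifiers are not independent molecules.

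Exons were those of GENCODE M21 basic transcripts on GRCm38. Codons, motifs and exon numbers refer to the transcript with the longest coding sequence, and codon numbers count the stop codon. Placed summits lay in the chosen transcript of 1 protein-coding gene and in no other gene's exon. Motif searches used the sense strand, for GGAC and for DRACH (any base but C, a purine, A, C, any base but G). Proteins translated from these transcripts were aligned with MAFFT 7.526 and summit windows were searched with BLAST+ 2.17.0 (E-value of at most 1e-05). Sequences are from the GENCODE M21 transcripts. No amino acid sequence was used in the text.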

Additional observations from a re-analysis of the deposited data

How the results depend on the processing

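Of 34 alternative settings over the counts and medians, 33 left the result within the spread or 1.5-fold range used. The exception was the GGAC window. With 25 nt in place of 50 nt, 7 of 17 member summits had a GGAC, beside 36.01% and 36.6% of all placed summits. With 100 nt 13 of 17 had one, beside 76.3% and 76.5%, so the count was near that of all genes. The 5 members with summits in both replicates became 4 without summits that also lie in an exon of another gene, which removed Gbp7. They were 5 at a minimum −log10 q of 3 or 5, at a minimum fold enrichment of 4, with exons of all transcripts and with any overlap of 1 bp. The share of all genes is not given here for these settings or for the count of 4. These counts therefore do not show whether the members differ from other genes at those settings. The 17 overlapping peaks became 14 with 50% reciprocal overlap and 14 with summits within 100 bp. No share over all exonic peaks is given here for these stricter settings. The median fold enrichment over both lists was 5.72, and 5.51 to 6.05 with either replicate left out. No paired analysis was possible because the results come from no test and the input samples that share replicate numbers with the IP samples were not analysed here. Depth limits the Irgm2 peaks most, at 18 to 24 IP reads.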
